A study of Gallus gallus with 20 samples.

Results

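Libraries of chicken MuSCs, the satellite cells that rebuild skeletal muscle, were divided by whether they held transcripts of the W chromosome. The sets were chosen by 1 measured value, the rounded count of HINTW, a W-linked gene (W, 2901766 to 2911002 in GRCg7b). Libraries with more than 100 counts are called female-type (10 of 20) and libraries with 100 or fewer are called male-type (10 of 20). The library just inside the limit was A76 with 876 counts, and the one just outside it was A16 with 9. These names describe the count and not a recorded sex, which the sample labels do not give.

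In birds, females carry one Z and one W chromosome and males carry a pair of Z chromosomes. The W holds few genes, and most of those keep a related copy on the Z. Birds lack the chromosome-wide silencing by which mammals equalise the sexes, so that Z-linked genes are on the whole transcribed more in males, with partial compensation that differs between genes. If every Z copy gave equal output, the log2 fold change of females over males would be -1.

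The cells came from the pectoralis major of Ross-308 broilers, 36 days of age, which were either affected by Wooden Breast, a myopathy with hardened and fibrotic breast muscle, or non-affected. The study's methods describe its own birds as male and also name fillets of the same age from an abattoir, with no sex stated, and which source each library had is not given. The female-type libraries were 1 affected (A76) and 9 non-affected libraries, and the male-type libraries were 8 affected and 2 non-affected (NA61 and NA61B). The W-linked set and the condition were therefore nearly confounded (correlation of the 2 indicators -0.70, n = 20), and every estimate that holds condition constant rests on A76, NA61 and NA61B. The study's methods describe other numbers of libraries per condition and the exclusion of unnamed non-affected outliers, so the conditions used here are those of the labels alone, and the labels of these 3 libraries were not checked by another source. The labels name each library as a bird, some with a suffix B. Read without that suffix, NA61 and NA61B share a bird number, as do NA64 and NA64B, A16 and A16B, and A76 and A76B. A76 and A76B nevertheless fell in different sets, with 876 and 0 counts of HINTW. Nothing in the labels says whether a shared number means 1 bird, so p-values measure the spread between libraries, part of which may be technical.

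Total counts were 15425103 to 28113814 in female-type libraries and 15632134 to 26541152 in male-type libraries. Genes of MuSC identity such as PAX7 were counted in both sets. Their summed level was 802 CPM (counts scaled to a common library size with the TMM factors) in A76 and 846 to 4242 CPM in the other female-type libraries, against 818 to 1179 CPM in affected and 1312 and 1476 CPM in non-affected male-type libraries. Macrophage markers (14 of 15 listed genes in the sum, of which 9 were tested) summed to 61.5 CPM in A76 and 17.6 to 41.0 CPM in the other female-type libraries. In male-type libraries they summed to 40.5 to 201 CPM when affected, and to 46.4 and 80.3 CPM when non-affected. Macrophage transcripts were thus lower in female-type non-affected libraries than in nearly all the others, and their part in the results below was not tested. Fibroblast and matrix markers summed to 17384 CPM in A76 and 7044 to 24412 CPM in the other female-type libraries. In male-type libraries they summed to 4988 to 18523 CPM when affected, and to 16386 and 17482 CPM when non-affected. Smooth muscle and pericyte markers summed to 2172 CPM in A76 and 1585 to 5310 CPM in the other female-type libraries. Affected male-type libraries had 1995 to 7954 CPM of them, and non-affected ones 2699 and 5861 CPM. Markers of erythrocytes, which are nucleated in birds, did not exceed 0.470 CPM in sum. That sum holds the 4 of 7 listed symbols found in the table, of which 0 passed the filter for testing, and the absent symbols could not be judged.

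Besides HINTW, 5 genes named as W copies were counted almost only in female-type libraries: ATP5A1W, HNRNPKL, SPIN1L, UBAP2L2 and SMAD7B. ATP5A1W, related to a subunit of the mitochondrial ATP synthase, had 38.6 CPM in A76 and 162 to 222 CPM in the other 9 female-type libraries, against 0.422 to 1.83 CPM in male-type libraries. HNRNPKL, related to an RNA-binding protein, had 21.8 CPM in A76 and 58.7 to 85.2 CPM in the other 9 female-type libraries, and its median in male-type libraries was 0.204 CPM. SPIN1L, a relative of the histone reader SPIN1, had 4.99 CPM in A76 and 11.6 to 24.3 CPM in the other 9, against at most 0.127 CPM in male-type libraries. A76 lay below the other 9 female-type libraries for each of these genes and far above every male-type library. The 6 genes summed to 123.8 CPM in A76, 399 to 610 CPM in the other female-type libraries, and 1.27 to 2.25 CPM in male-type libraries. A76 thus held 28.4% of the median of the other 9 (20.9% to 35.5% for single genes), and no male-type library held more than 0.517%. Because HINTW chose the sets, these levels are given as a description only, with no test result.

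Not every gene placed on the W separated the sets. NEDD4L, a ubiquitin ligase gene that the annotation puts on the W by its symbol, had 19.5 to 63.7 CPM in female-type and 20.1 to 73.7 CPM in male-type libraries. ENS-1 had 1.77 to 13.2 CPM in female-type and 0.975 to 16.98 CPM in male-type libraries. Both sets overlapped for these genes, and reads of a W copy, a Z copy and repeated sequences cannot be told apart from the deposited counts. Among all 30108 rows of the table, 52 had a median of at least 20 counts in female-type libraries and at most 10 counts in any male-type library. Of these, 5 are placed on the W, 2 on autosomes (MYL10 and UNC45B), and 45 carry no gene symbol and so have no position here. A76 was below the median of the other 9 in 45 of these 45 rows, at a median of 26.5% of it. In the autosomal MYL10 and UNC45B, A76 was likewise low, at 8.94% and 0% of that median. Both genes had a lowest female-type count of 0. The rows were picked for high counts in female-type libraries, and the reverse filter, for rows confined to male-type libraries, was not applied.

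The level of the Z chromosome was then measured in each library as the median log2 deviation of 511 Z-linked genes from their mean over all libraries, minus the same median of 10199 autosomal genes. A76 had a Z level of 0.10 and the other 9 female-type libraries had -0.48 to -0.22 (median -0.25), against 0.20 to 0.28 (median 0.23) in male-type libraries. The sets did not overlap. NA64B stood lowest at -0.48 among female-type libraries, whose other non-affected members lay between -0.29 and -0.22. The mean was -0.24 ± 0.14 in female-type and 0.23 ± 0.03 in male-type libraries (SD, n = 10 each), a difference of -0.47 (two-sided permutation test with 100000 resamples, p = 2e-05, the smallest these resamples can give). Within non-affected libraries the difference was -0.49 (9 against 2 libraries, exact permutation test, p = 0.0182, the smallest possible). NA61 and NA61B, the whole male-type side there, share a bird number but are counted separately, so this p is too small if they are 1 bird. Within affected libraries, where the female-type is A76 alone, it was -0.14 (1 against 8 libraries, exact permutation test, p = 0.111, the smallest possible). With both conditions weighted equally it was -0.31 (exact permutation within condition over 495 arrangements, p = 0.00202, the smallest possible), and without A76 it was -0.50. The p within condition has the same limit. With libraries of a bird number averaged, A76 and A76B kept apart and condition ignored, the difference was -0.45 (exact permutation test, p = 8.23e-05).

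**Figure D1:**
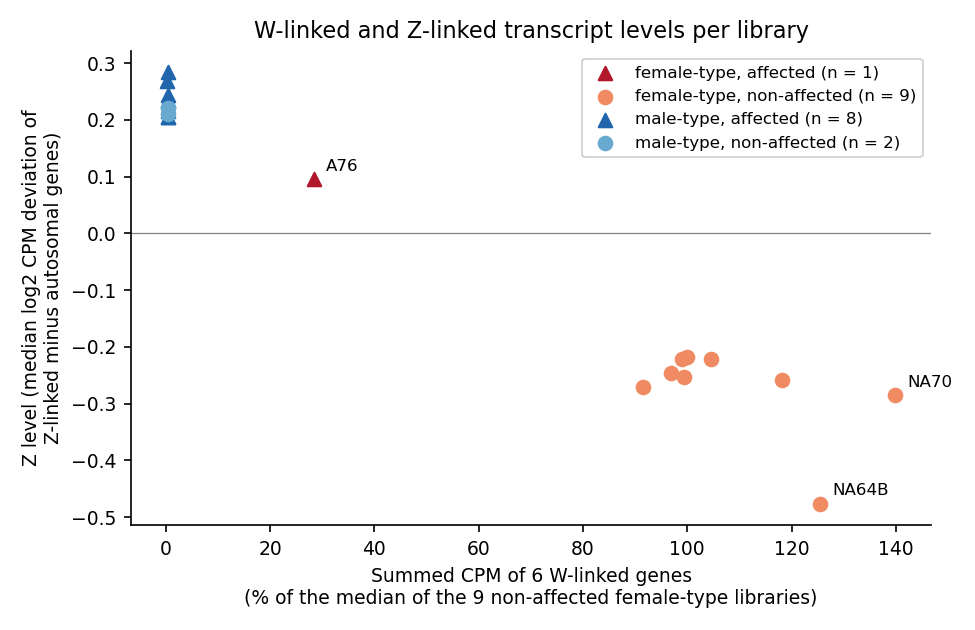
Each point is 1 library, with the summed CPM of 6 W-linked genes as a percentage of the median of the 9 non-affected female-type libraries on the horizontal axis and the Z level (log2) on the vertical axis. Male-type libraries sit at no more than 0.517% with Z levels of 0.20 to 0.28, the 9 non-affected female-type libraries sit below -0.21, and A76 lies between them at 28.4% and 0.10.

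A76 was intermediate on both chromosomes. Its Z level lay 72.5% of the way from the median of the other female-type libraries to that of male-type libraries. The cause of its intermediate levels was not tested. NA61 and NA61B, the non-affected male-type libraries, had Z levels of 0.22 and 0.21 and lay inside the range of affected male-type libraries.

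Genes were next compared between female-type and male-type libraries with condition as a term (quasi-likelihood test of edgeR, p-values adjusted by Benjamini and Hochberg's method across 14348 tested genes, with genes called where the adjusted p did not exceed 0.05). In the whole table, 48 were higher (0.335%) and 34 were lower (0.237%) in female-type libraries. The 48 were 5 W-linked genes, HINTW among them, and 43 genes with no position, so that they in part restate the choice of the sets. Of 511 Z-linked genes, 0 were higher and 21 were lower (4.11%), and 160 had an unadjusted p under 0.05. Of 10199 autosomal genes, 0 were higher and 4 were lower (0.0392%), and 362 had an unadjusted p under 0.05. DESeq2 called 42 Z-linked and 20 autosomal genes. The median log2 fold change was -0.31 over Z-linked genes and 0.04 over autosomal genes, a difference of -0.35, and 418 of 511 Z-linked genes were below 0 (81.8%), against 42.6% of autosomal genes. Of the Z-linked genes, 16 were at or below -1, 117 lay between -1 and -0.5, 285 lay between -0.5 and 0, and 93 were at or above 0. Thus the estimates of most Z-linked genes lay between 0 and the -1 of equal output per copy. How far they lay from 0 depended on A76. Without it, 24 of 512 Z-linked genes were at or below -1 and 202 lay between -1 and -0.5. A further 178 lay between -0.5 and 0, and 108 were at or above 0.

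The Z-linked calls depended on the few libraries that separate the sets from condition. Without A76, 44 Z-linked genes were lower and the difference of medians was -0.48. Without NA61B, 2 Z-linked genes were lower, and without NA61, 9 were lower. Without both, 0 were lower and the difference of medians was -0.10, because A76 alone then set the contrast. With the libraries of a bird number summed, 3 Z-linked and 0 autosomal genes were called, so that most calls, including those of single genes below, also rest on counting such libraries separately. Without a condition term, 215 genes were higher (1.5%) and 448 were lower (3.12%) in female-type libraries. Of these, 3 and 166 were Z-linked and 129 and 160 were autosomal. The Z-linked share thus went almost entirely in 1 direction, whereas autosomal genes went in both.

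**Figure D2:**
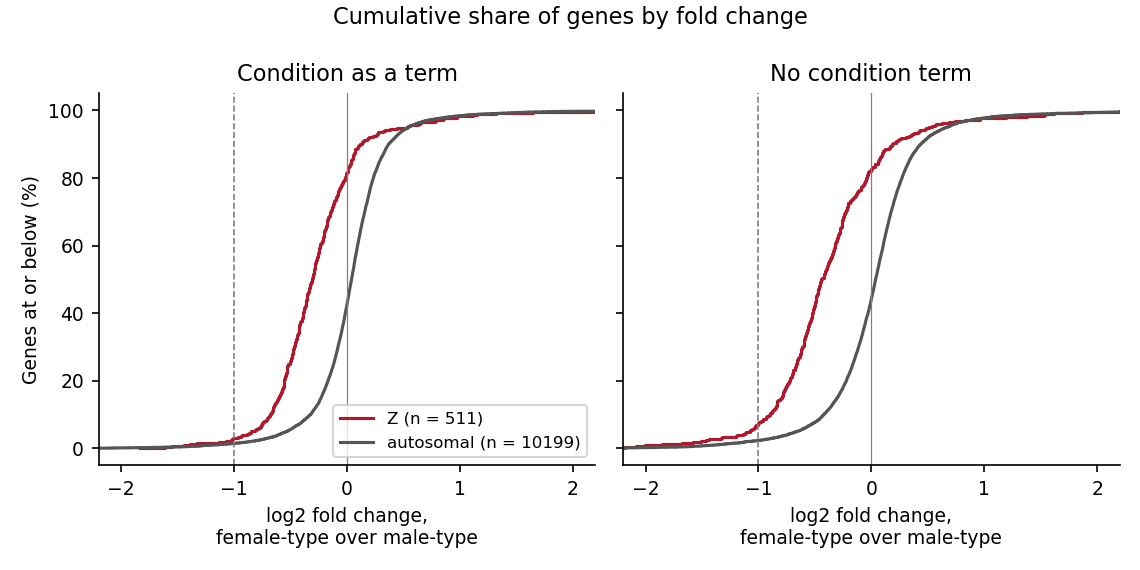
Cumulative percentage of tested genes (vertical axis) at or below each log2 fold change of female-type over male-type libraries (horizontal axis), for 511 Z-linked and 10199 autosomal genes, with condition as a term at left and without it at right. The dashed line marks -1, and the Z-linked curve lies left of the autosomal one over most of its range, with medians of -0.31 and 0.04 at left and -0.45 and 0.04 at right.

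Without regard to any model, the libraries themselves were compared gene by gene. For 25 Z-linked genes (4.89%), every female-type library lay below every male-type library, A76 included. None of the 10199 autosomal genes showed this (0%), where the share called lower was 0.0392%. In the other direction, female-type libraries lay above every male-type library for 0 Z-linked genes and 2 autosomal genes (0.0196%). Without A76 the counts below were 71 Z-linked genes (13.9%) and 1 autosomal gene (0.0098%). Of the 21 Z-linked genes called, 16 did not overlap over all libraries and 21 of 21 did not overlap once A76 was left out. Those 21 were chosen by the same contrast in the same libraries, so their separation is in part built in.

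The Z-linked gene with the smallest p was FAM172A (Z, 58908648 to 59172608), with 49.4, 55.5 and 78.0 CPM (lowest, median and highest) in female-type libraries, against 96.0, 104 and 129 CPM in male-type libraries. Its log2 fold change was -0.68 (SE 0.10, adjusted p = 0.000501, edgeR). The highest female-type value was that of A76, which still lay below all male-type libraries. MSH3 (Z, 64658489 to 64775849), which recognises mismatched loops in DNA, had 6.93, 8.42 and 11.8 CPM in female-type libraries, against 13.5, 17.02 and 18.6 CPM in male-type libraries. Its log2 fold change was -0.85 (SE 0.13, adjusted p = 0.000877, edgeR). Again the sets did not overlap and A76 was the highest of the female-type libraries. VCP (Z, 9086208 to 9107429), an ATPase that extracts proteins for degradation, had 283, 318 and 432 CPM in female-type libraries, against 462, 543 and 624 CPM in male-type libraries. Its log2 fold change was -0.60 (SE 0.10, adjusted p = 0.00288, edgeR).

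The other genes among the 10 with the smallest p served varied household functions. MED18, a subunit of the Mediator complex, had 15.0 to 29.4 CPM in female-type and 30.4 to 40.7 CPM in male-type libraries (log2 fold change -0.72). PELO, which rescues stalled ribosomes, had 25.7 to 41.0 CPM in female-type and 46.8 to 71.0 CPM in male-type libraries (-0.74). GOLPH3, a Golgi protein, had 65.3 to 114 CPM in female-type and 120.1 to 149 CPM in male-type libraries (-0.56). For these genes too the sets did not overlap. ACAA2, a thiolase of mitochondrial fatty acid oxidation, fell by 0.77 on the log2 scale, SPTLC1, a subunit of the enzyme that starts sphingolipid synthesis, by 0.69, ALDH7A1, an aldehyde dehydrogenase of lysine breakdown, by 0.87, and WDR41 by 0.93. Of these 4 genes, ALDH7A1 and SPTLC1 overlapped between the sets, with 48.2 CPM for ALDH7A1 and 65.6 CPM for SPTLC1 in A76, the highest female-type values, against lowest male-type values of 45.0 CPM and 63.0 CPM. Among the 10 genes, the largest adjusted p was 0.00782 (edgeR). Without A76, the log2 fold changes of all 10 were farther from 0, between -0.74 for VCP and -1.15 for ALDH7A1.

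**Figure D3:**
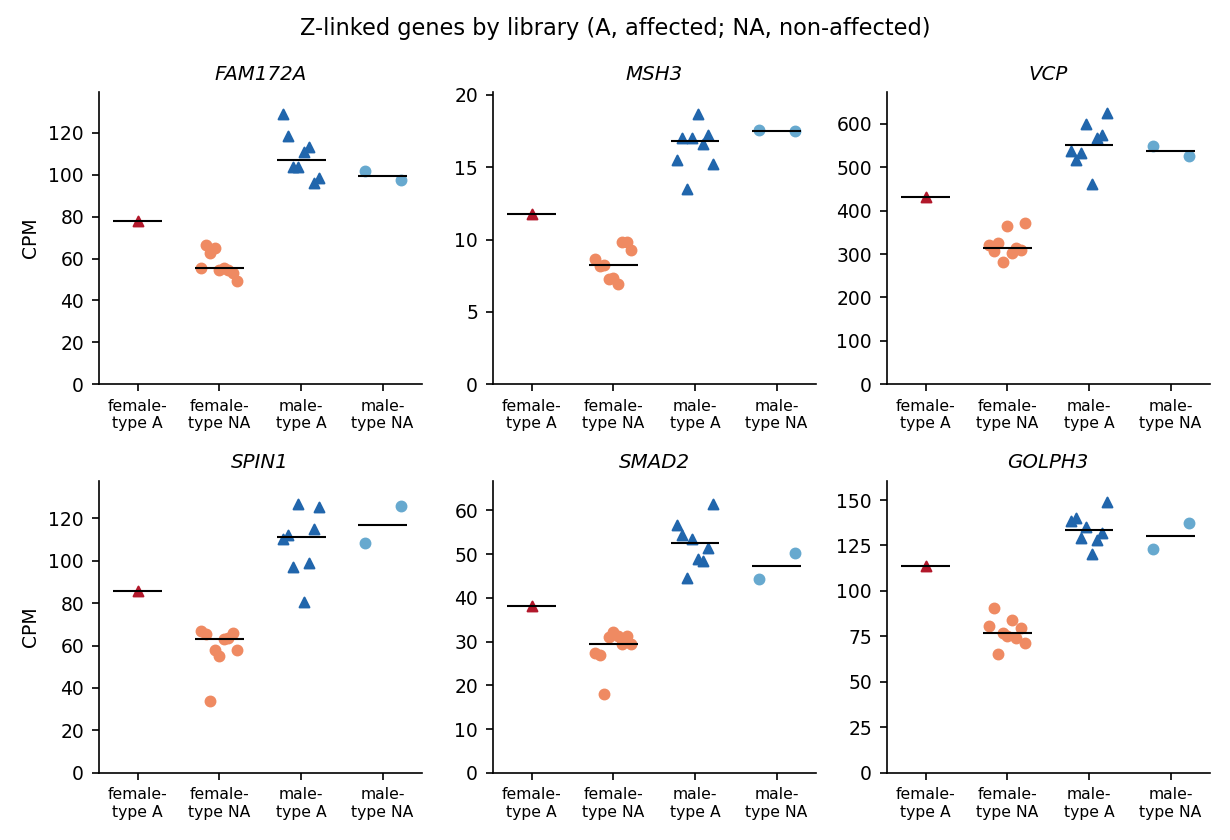
CPM of 6 Z-linked genes (vertical axes, from 0) in each library, by set and condition, with the female-type sets left of the male-type sets and a line at each median. The single affected female-type library (A76) lies above the median of the non-affected female-type libraries in each panel, and the 2 non-affected male-type libraries lie within or near the range of the affected ones.

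Z-linked genes with a known or named copy on the W were examined as a group, since reads of the copies may be shared. Of 26 listed partners, 16 were tested. All 16 were below 0 in female-type libraries, 6 were called lower, and the median was -0.52, beside -0.31 for all Z-linked genes, of which 4.11% were called. The 6 were SPIN1, SMAD2, UBAP2, MIER3, VCP and GOLPH3. SPIN1 (Z, 43790850 to 43866043), partner of SPIN1L, had 34.0, 63.5 and 85.5 CPM in female-type libraries, against 80.6, 111 and 127 CPM in male-type libraries (log2 fold change -0.75, adjusted p = 0.0216, edgeR). SMAD2 (Z, 1844055 to 1885830), which carries signals of TGF-beta and myostatin to the nucleus, had 18.1, 30.3 and 38.1 CPM in female-type libraries, against 44.2, 50.8 and 61.5 CPM in male-type libraries (-0.63, adjusted p = 0.0180, edgeR). SMAD2 did not overlap between the sets, whereas SPIN1 overlapped only through A76, at 85.5 CPM. UBAP2 (partner of UBAP2L2) fell by 0.74 on the log2 scale and MIER3 by 0.66, with adjusted p of 0.0147 and 0.0332 (edgeR).

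HINT1 and HNRNPK, partners of W copies named above, were not called. HINT1, the Z-linked relative of HINTW, had 9.25, 11.0 and 16.2 CPM in female-type libraries, against 12.4, 14.4 and 25.5 CPM in male-type libraries (log2 fold change -0.47, adjusted p = 0.75, edgeR). HNRNPK, partner of HNRNPKL, had 179, 201 and 309 CPM in female-type libraries, against 201, 243 and 361 CPM in male-type libraries (-0.19, adjusted p = 0.939, edgeR). The sets overlapped for both genes. CHD1, a chromatin remodeler whose Z and W copies are used to sex birds, had a log2 fold change of -0.56 (adjusted p = 0.11, edgeR), and without A76 it was -0.84 (adjusted p = 0.00793, edgeR). The remaining tested partners, TMEM161B, TXNL1, BTF3, RPL17, UBE2R2, SUB1 and ZSWIM6, were not called either. Their log2 fold changes ran from -0.59 for ZSWIM6 to -0.08 for TMEM161B. UBE2R2 alone of the partners moved toward 0 without A76, from -0.48 to -0.43.

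A second list held Z-linked genes of growth, matrix and cell cycle, chosen because they act in muscle. Of 48 listed genes, 40 were tested, 0 were called in either direction, 30 were below 0, and the median was -0.24, beside -0.31 for all Z-linked genes. Without a condition term, 12 were lower, beside 32.5% of all Z-linked genes. GHR, the growth hormone receptor, had 19.1, 37.8 and 56.0 CPM in female-type libraries, against 33.9, 83.0 and 120.1 CPM in male-type libraries. With condition as a term its log2 fold change was -0.32 (adjusted p = 0.939, edgeR), and without it -0.97 (adjusted p = 0.00999, edgeR). The non-affected male-type libraries NA61 and NA61B had 33.9 and 44.6 CPM of GHR, within the female-type range. RICTOR, a subunit of mTOR complex 2, had 3.57, 15.2 and 19.99 CPM in female-type libraries, against 17.2, 27.7 and 36.5 CPM in male-type libraries (-0.76, adjusted p = 0.612, edgeR). FST, which binds myostatin and activin, had 12.1, 30.3 and 115 CPM in female-type libraries, against 13.2, 30.1 and 81.5 CPM in male-type libraries (0.85, adjusted p = 0.939, edgeR). The sets overlapped for all 3 of these genes.

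Median fold changes were below 0 along the whole Z chromosome. In 9 intervals of 10 Mb with 25 to 85 tested genes, the median log2 fold change lay between -0.37 (80 to 90 Mb, 25 genes) and -0.15 (70 to 80 Mb, 31 genes). The interval from 20 to 30 Mb, with 85 genes, had a median of -0.24. Without A76 its median was -0.29 and 24 of its genes were above 0. In that fit the interval from 70 to 80 Mb had a median of -0.19 and 9 genes above 0. Of all 512 Z-linked genes in that fit, 108 were at or above 0. Among all chromosomes, the Z was followed by chromosome 16, with a median of -0.07 over 31 genes. The 13 mitochondrial genes had a median of -0.34, 13 of 13 were below 0, and 0 were called (edgeR), with 2 at an unadjusted p under 0.05. The mitochondrial share of counts was 1.47% to 3.21% in female-type and 2.23% to 3.29% in male-type libraries.

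Without a condition term, 3 Z-linked genes were higher in female-type libraries, TEK, EGFLAM and HABP4, which were picked out after their values were seen. TEK, the angiopoietin receptor, had 92.8 CPM in NA65 and at most 7.12 CPM in the other female-type libraries, against at most 1.62 CPM in male-type libraries. EGFLAM, a matrix protein, had 222 CPM in NA65 and at most 37.4 CPM in the other female-type libraries, against at most 15.7 CPM in male-type libraries. A single library was thus far above the rest for both genes. HABP4 had 2.42, 6.32 and 14.5 CPM in female-type libraries, against 1.27, 3.07 and 4.59 CPM in male-type libraries. With condition as a term, the log2 fold changes were 3.94 for TEK, 1.65 for EGFLAM and 0.65 for HABP4, each with an adjusted p of 0.939 (edgeR).

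The 4 autosomal genes called with condition as a term were ANOS1, IL17REL, SLC35F1 and FCER1G, each with a log2 fold change below 0. ANOS1 (chromosome 1, 125834574 to 125965264), a secreted matrix glycoprotein, had 1.75, 6.08 and 15.6 CPM in female-type libraries, against 11.8, 37.9 and 74.1 CPM in male-type libraries (log2 fold change -2.22, SE 0.45, adjusted p = 0.0180, edgeR). The 9 non-affected female-type libraries had a median of 6.04 CPM and A76 had 12.7 CPM. IL17REL (chromosome 1, 20225163 to 20267445) had 0.0931, 2.66 and 8.82 CPM in female-type libraries, against 1.04, 67.5 and 227 CPM in male-type libraries (-4.52, SE 1.01, adjusted p = 0.0433, edgeR). The non-affected male-type libraries differed, with 4.07 CPM of IL17REL in NA61, within the female-type range, and 132 CPM in NA61B. Without A76, IL17REL was not called (adjusted p = 0.0848, edgeR). ANOS1 and IL17REL both overlapped between the sets. SLC35F1 (chromosome 3, 62751672 to 62987084) had 0.14, 0.50 and 8.25 CPM in female-type libraries, against 0.384, 1.09 and 55.0 CPM in male-type libraries (-3.58, adjusted p = 0.0494, edgeR), and the highest value was that of NA61B alone. Its median was 0.559 CPM in non-affected female-type and 0.753 CPM in affected male-type libraries. The call of SLC35F1 thus rested on NA61 (5.465 CPM) and NA61B. FCER1G (chromosome 25, 2532540 to 2534058), a signalling subunit of Fc receptors on myeloid cells in mammals, had 0.233, 0.552 and 1.31 CPM in female-type libraries, against 0.975, 1.84 and 3.68 CPM in male-type libraries (-1.63, adjusted p = 0.0446, edgeR). FCER1G has few counts. It had 2.27 and 3.68 CPM in the non-affected male-type libraries, against a median of 1.65 CPM in affected male-type libraries. The macrophage markers given above were lower in non-affected female-type libraries than in nearly all the others, and a link to FCER1G was not tested. Without NA61B, 0 autosomal genes were called, and without NA61, 9 were.

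No autosomal gene was called higher in female-type libraries, where edgeR found 0 and 362 autosomal genes had an unadjusted p under 0.05 in either direction. The gene nearest to the threshold was MCM9, a helicase of recombination repair, with 8.89, 12.6 and 14.3 CPM in female-type libraries, against 3.43, 5.28 and 10.2 CPM in male-type libraries (log2 fold change 1.08, SE 0.25, adjusted p = 0.0594, edgeR). The others among the 5 smallest p were PERPB, AHR1B, KRT7 and PLEKHO1, with log2 fold changes of 2.55, 1.82, 3.76 and 0.46 and adjusted p between 0.0966 and 0.208 (edgeR). Of the lower genes that were not called, SLITRK2 had a log2 fold change of -1.26 (adjusted p = 0.0609, edgeR) and COL11A1, a fibrillar collagen, -2.07 (adjusted p = 0.0891, edgeR). COL11A1 had 2.901, 8.94 and 28.6 CPM in female-type libraries, against 4.21, 52.7 and 104 CPM in male-type libraries.

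**Figure D4:**
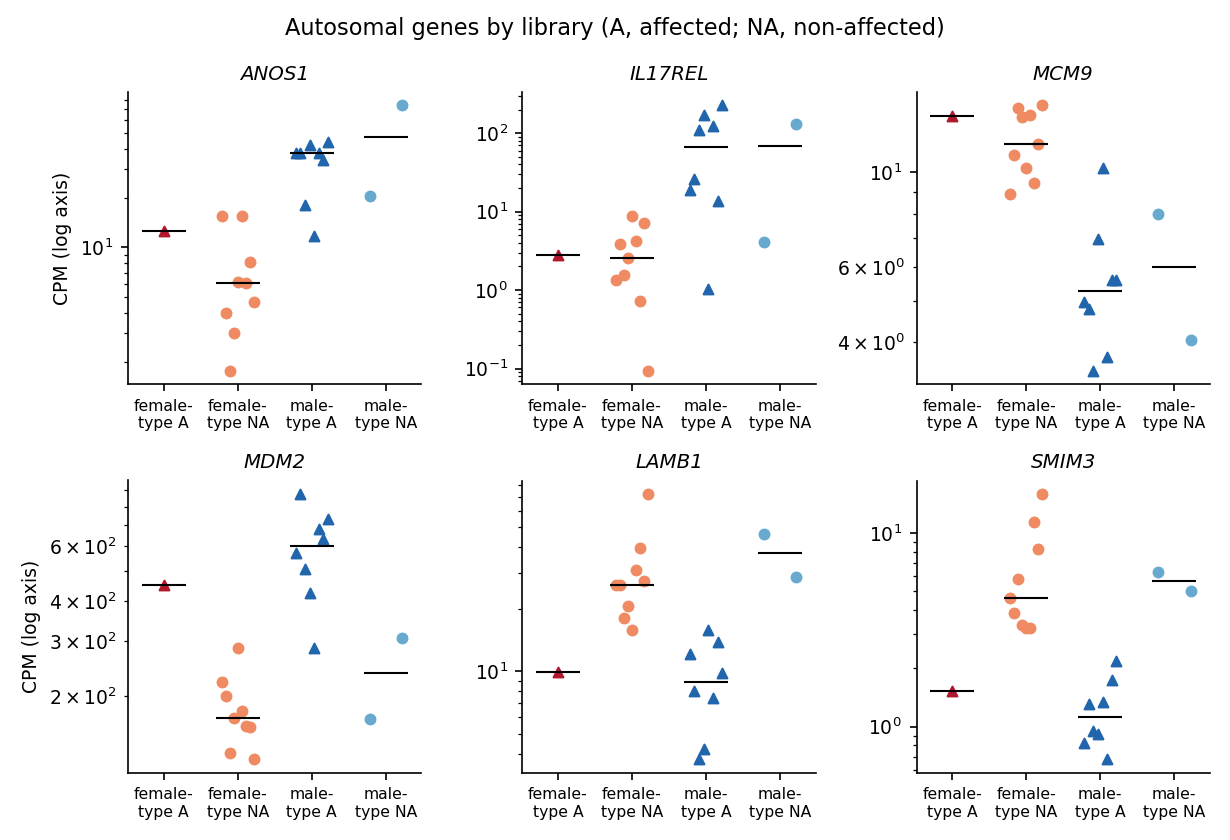
CPM of 6 autosomal genes (log axes) in each library, by set and condition, with the female-type sets left of the male-type sets and a line at each median. ANOS1, IL17REL and MCM9 were named for the contrast of the sets, and MDM2, LAMB1 and SMIM3 were known from earlier results by condition. MDM2 was 451 CPM in A76, above the 126 to 286 CPM of non-affected female-type libraries.

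Condition was then compared with the W-linked set as a term. No gene was called between affected and non-affected libraries (0 of 14348, 0%, edgeR), 909 had an unadjusted p under 0.05, and DESeq2 called 98. Without the term, 869 genes were called, 467 higher (3.25%) and 402 lower (2.8%) in affected libraries. Of 511 Z-linked genes, 119 were higher (23.3%) and 9 lower (1.76%). Of 10199 autosomal genes, 236 were higher (2.31%) and 291 lower (2.85%). Of 7 genes placed on the W, 5 were lower. The median standard error over all genes was 0.254 with the term and 0.181 without it, so the count of 0 does not show that condition has no effect. When A76 was left out the count with the term was still 0 (edgeR, with 1211 at an unadjusted p under 0.05), without NA70 it was 10, without A85 it was 7 and without NA64B it was 5. An interaction of the set and condition was called for 0 genes (edgeR, with 693 at an unadjusted p under 0.05), so that a difference in the effect of condition between the sets was not detectable with 1 affected female-type library.

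Levels in the 4 kinds of libraries follow for genes with the smallest p for condition. The condition term rests on A76, NA61 and NA61B. Genes chosen by it therefore tend to place these 3 libraries by condition, and their levels are a description only. MDM2 (chromosome 1, 35421927 to 35438703), the ubiquitin ligase that restrains p53, had 451 CPM in A76 and 126, 171 and 286 CPM in non-affected female-type libraries. In male-type libraries it had 284, 599 and 878 CPM when affected, against 169 CPM in NA61 and 305 CPM in NA61B. Its log2 fold change was 1.31 for affected over non-affected libraries (adjusted p = 0.143, edgeR) and -0.38 for female-type over male-type libraries (adjusted p = 0.939, edgeR). LAMB1, a laminin chain of basement membranes, had 9.98 CPM in A76 and 15.9, 26.2 and 72.6 CPM in non-affected female-type libraries. In male-type libraries it had 3.75, 8.92 and 15.96 CPM when affected, against 46.3 CPM in NA61 and 28.8 CPM in NA61B. For LAMB1, A76 lay with the affected libraries, and NA61 and NA61B lay with the non-affected ones. SMIM3 had 1.52 CPM in A76 and 3.22, 4.60 and 15.9 CPM in non-affected female-type libraries, and in male-type libraries 0.677, 1.13 and 2.195 CPM when affected, against 6.28 CPM in NA61 and 5.01 CPM in NA61B. The log2 fold changes for condition were -1.86 for LAMB1 and -2.15 for SMIM3, each with an adjusted p of 0.143 (edgeR). COL4A6, a basement membrane collagen chain, came nearest to the threshold at -3.58 (adjusted p = 0.0651, edgeR). The other genes among the 5 smallest p in the higher direction were CYP4B7, VEGFA, POLK and DCTN3 (0.49 for DCTN3 to 1.14 for CYP4B7). In the lower direction they were CHGB, DBN1 and COL4A5 (-1.99 for DBN1 to -2.79 for CHGB). None of them was called for condition. POLK and DCTN3 are Z-linked. For the set, DCTN3 was called lower in female-type libraries (log2 fold change -0.55, adjusted p = 0.0471, edgeR) and POLK was not called (-0.27, adjusted p = 0.939, edgeR).

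CDKN1A and TREM2, which earlier results of these data had also named, had wider spreads. CDKN1A, the p53 target that arrests the cell cycle, had 199 CPM in A76 and 70.5, 171 and 237 CPM in non-affected female-type libraries, and in male-type libraries 86.8, 535 and 623 CPM when affected, against 104 CPM in NA61 and 288 CPM in NA61B. Its log2 fold changes were 0.93 for condition and -0.62 for the set, with adjusted p of 0.855 and 0.939 (edgeR). TREM2, a receptor of macrophages, had 0.315 CPM in A76 and at most 1.497 CPM in non-affected female-type libraries, and in male-type libraries 1.46, 5.65 and 11.4 CPM when affected, against 0.0581 CPM in NA61 and 0.256 CPM in NA61B. Its log2 fold changes were 3.36 for condition and 0.58 for the set, with adjusted p of 0.735 and 0.966 (edgeR).

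To see where the 3 libraries that break the confounding lay, genes were called between the 9 non-affected female-type and the 8 affected male-type libraries alone, which gave 8 higher and 199 lower Z-linked genes and 353 higher and 315 lower autosomal genes. Each of the 3 libraries, which took no part in that choice, was placed between the means of the 2 sets, at 0% for non-affected female-type and 100% for affected male-type. Over the 207 Z-linked genes, A76 lay at a median of 72.3%, NA61 at 84.1% and NA61B at 90.3%. Over the 668 autosomal genes, A76 lay at 47.3%, NA61 at -5.25% and NA61B at 59.9%. On the Z, all 3 libraries were therefore nearer to the male-type affected set. On the autosomes NA61 was placed with the female-type non-affected set, while NA61B and A76 were intermediate. NA61 and NA61B carry the same bird number and condition and were nevertheless far apart over these 668 genes. Over 8979 autosomal genes, their root mean square difference in log2 CPM was 0.660. The median over their pairs with other libraries was 0.724. The same values were 0.887 and 0.795 for NA64 and NA64B, and 0.627 and 0.717 for A76 and A76B. For A16 and A16B they were 0.510 and 0.706.

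**Figure D5:**
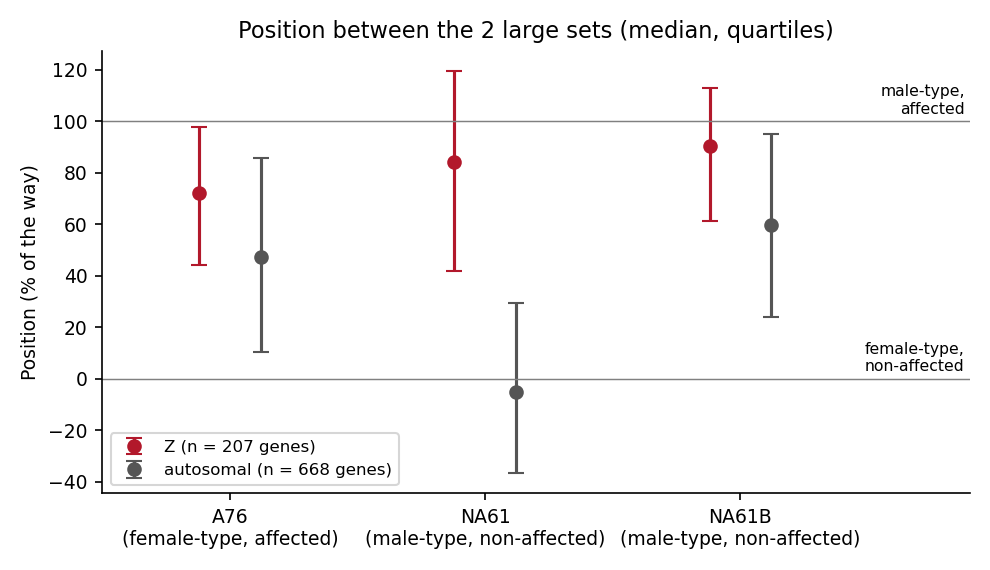
Position of A76, NA61 and NA61B (horizontal axis) between non-affected female-type libraries (0%) and affected male-type libraries (100%) over 207 Z-linked and 668 autosomal genes called between those sets; points are medians over genes and bars span the quartiles. The Z-linked medians are 72.3%, 84.1% and 90.3%, and the autosomal ones are 47.3%, -5.25% and 59.9%.

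Apart from the lists of Z-linked and W-linked genes, the gene lists gave 0 called members in either direction with condition as a term. The 24 S phase genes and the 24 G2/M genes had median log2 fold changes of 0.40 and 0.43 for female-type over male-type libraries, beside 0.02 for all tested genes, and each of the 48 was above 0. For affected over non-affected libraries, the medians were -0.42 and -0.48, and each was below 0. The G2/M genes summed to 2046 CPM in A76 and 1087 to 2589 CPM in the other female-type libraries, against 207 to 2769 CPM in affected and 888 and 2607 CPM in non-affected male-type libraries, so that the sets overlapped. Both terms rest on the same 3 libraries. Genes of sex determination and sex steroids, of which 12 of 17 were tested, had a median of -0.06, and 7 were below 0. ESR1, the estrogen receptor, had a log2 fold change of -0.64 (adjusted p = 0.939, edgeR). Genes of muscle contraction and differentiation (24 tested) had a median of 0.60 for the set, with 8 below 0, and -0.88 for condition, with 17 below 0. The p53 targets (20 tested) had medians of -0.12 for the set and 0.21 for condition. Genes of MuSC identity (18 tested) had medians of -0.28 for the set and -0.81 for condition, with 13 and 17 below 0. For the set, markers of fibroblasts (9 tested), smooth muscle and pericytes (5), endothelium (4) and adipocytes (6) had medians of 0.23, -0.21, 0.08 and -0.11. The macrophage markers (9 tested) had medians of -0.54 for the set and 0.89 for condition. Without a condition term, 4 of them were called lower in female-type libraries, beside 3.12% lower and 1.5% higher of all tested genes. Other lists had calls in that fit too. They were 4 lower p53 targets, 5 higher and 1 lower gene of muscle contraction and differentiation, and 1 higher gene each of MuSC identity and endothelium. For sex determination and sex steroids, 1 gene was lower.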

How the data were processed

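Poly-A RNA of 20 MuSC cultures was sequenced. The authors aligned reads to GRCg7b with STAR 2.7.9a and quantified them with Salmon 1.10.1 (versions per the submitters' processing notes), and deposited estimated counts per gene, summarised with tximport, neither normalized nor filtered. Salmon divides reads shared by similar transcripts, such as Z and W copies, by estimate.

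The estimated counts were rounded, normalized by TMM and fitted in edgeR 4.0.16 (R 4.3.3; quasi-likelihood F test) with W-linked set and condition as terms. filterByExpr by set kept 14348 of 30108 genes, leaving 17 residual degrees of freedom and a variance inflation of 1.98. Standard errors are approximations, the size of a log2 fold change over the root of its F statistic. Genes were placed by symbol on the RefSeq annotation of GRCg7b (13355 placed, 611 of the matches by an older symbol; 15860 genes have no symbol). CPM use the TMM factors, and the Z level uses log2 CPM with a prior count of 2.

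The members, the limit of 100 counts and the gene lists were chosen with earlier results of these data known. Named genes were all tested W-linked genes and their tested Z partners. For Z-linked and for autosomal genes they were up to 10 called genes per direction, taken by p among genes that average 50 counts or more and have a symbol other than a LOC number, or the first 5 by p where fewer than 5 were called. For condition, up to 5 in each direction were named, and MDM2, SMIM3, CDKN1A, LAMB1 and TREM2 were added from earlier results. The remaining called genes and values described were chosen after they were seen. The Z level was compared with permutation tests (SciPy 1.17.1, Python 3.11.15). Where a library has no count of a gene, as many as 3 counts remain possible by counting error alone.

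The edgeR fit was tested on simulated independent libraries with 200 genes changed by 1.5 on the log2 scale and no effect of condition. It recovered 84% of them, and 4.55% of its calls were false. The Z-linked changes called here were smaller, so the simulation does not measure the power to find them. The alternatives were DESeq2 1.42.0, limma-voom with bird number as a random effect (limma 3.58.1), other normalizations and filters, libraries of a bird number summed, the suffix B libraries left out, subsets by condition, other terms and each library left out. Libraries that share a bird number had a consensus correlation of 0.127. No sequences are shown. The study's tissue RNA-seq and proteomics were not used here. Plots were made with matplotlib 3.10.9.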

Additional observations from a re-analysis of the deposited data

Results flagged for a closer look

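In groups of 8 to 10 libraries, 27 of 164 groups of values (16.5%) held a library far from its nearest neighbour for the range of the group (Dixon's ratio). Chance gives about 1 in 20 for normally distributed values, whereas CPM were used here without logarithms. The values checked were the Z level, the summed W-linked level, the mitochondrial share and the CPM of chosen genes. Those genes were the W-linked ones, the called Z-linked and autosomal ones and those known from earlier results. The groups of values share libraries and are not independent.

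Among female-type libraries, A76 stood apart in the Z level (0.10, nearest -0.22), the summed W-linked level (123.8 CPM, nearest 399), HNRNPKL (21.8 CPM, nearest 58.7) and ATP5A1W (38.6 CPM, nearest 162). A76 also stood above the other female-type libraries in MDM2 (451 CPM), ZCCHC7 (15.9 CPM), AK6 (22.9 CPM), DCTN3 (80.5 CPM), SPTLC1 (65.6 CPM), MED18 (29.4 CPM) and GOLPH3 (114 CPM). All but MDM2 are Z-linked, as were most of the genes checked.

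Among the 9 non-affected female-type libraries, NA64B stood lowest in the Z level (-0.48, nearest -0.29), in SPIN1 (34.0 CPM, nearest 55.0) and in SMAD2 (18.1 CPM, nearest 27.0). Its partner by bird number, NA64, had a Z level of -0.22. NA70 stood highest in LAMB1 (72.6 CPM, nearest 39.6, also among all 10 female-type libraries) and WDR70 (26.7 CPM). NA66 stood highest in SLC35F1 (8.25 CPM, nearest 1.43), also among all 10.

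Among male-type libraries, NA61B stood highest in SLC35F1 (55.0 CPM, nearest 5.46), ANOS1 (74.1 CPM, nearest 44.3) and ANKRA2 (33.9 CPM, nearest 28.3), and A85 in MED18 (40.7 CPM). A4 stood highest in SPIN1L (0.127 CPM), also among the 8 affected ones, a level of a few counts. Among those 8, A76B stood highest in SLC35F1 (4.06 CPM) and A73 in NEDD4L (45.2 CPM).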

How the results depend on the processing

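The Z-linked count of 21, the autosomal count of 4 and the difference of medians of -0.35 were within 1.5 times or the spread between libraries with RLE size factors and with TMM from autosomal genes. DESeq2 gave 42 Z-linked, 20 autosomal and 98 condition calls, limma-voom with bird number as a random effect 2 autosomal calls, libraries of a bird number summed 3 and 0, and the suffix B libraries left out 2 and 0. Without NA61 and NA61B there were 0 Z-linked and 2 autosomal calls and a difference of -0.10. In affected libraries only there were 0 and 2, with a difference of medians of -0.094 and a difference in Z level of -0.14, and in non-affected libraries only the difference of medians was -0.47. With no condition term there were 169 and 289 calls and -0.48. With no W-linked term 869 genes were called for condition. With HINTW as a numeric term, 10 autosomal genes and 1 gene for condition were called. Asking also for a log2 fold change of at least 1 in size left 0 Z-linked genes. Chosen after seeing the data, the W-linked level of 6 genes as a numeric term gave 36, 7 and -0.42, and the 17 libraries whose set and condition coincide gave 207, 668 and -0.52. With each library left out in turn, Z-linked calls numbered 2 to 44, autosomal calls 0 to 9, condition calls 0 to 10, and the differences ran from -0.48 to -0.29 (medians) and from -0.50 to -0.44 (Z level).

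For female-type over male-type, TREM2 turned below 0 with limma-voom (-1.36), libraries of a bird number summed (-0.90), suffix B left out (-0.81), NA61 and NA61B left out (-4.17), no condition term (-2.55), affected libraries only (-4.12), the 17 libraries (-2.77), and without NA61 (-1.29) or NA61B (-0.91). LAMB1 turned above 0 without NA61 and NA61B (0.086), without NA61 (0.094), with no condition term (0.94), in affected libraries only (0.13), with the W-linked level (0.018) and in the 17 libraries (1.71). SLC35F1 was 0.33 in the 17 libraries, and TREM2 for condition was -1.41 without NA61 and NA61B. Of the other values of named genes for the set, 777 kept their side of the threshold and direction, 251 lost and 5 gained a call. With each library left out in turn, LAMB1 ranged from -0.32 to 0.094 and TREM2 from -1.29 to 2.35. The causes were not tested. No paired analysis was possible because the sets share only the bird number 76 and the conditions share none.

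Depth does not limit the W-linked contrast, but 1 affected female-type library and 2 non-affected male-type libraries of 1 bird number limit every estimate at fixed condition. Without NA61B, 2 Z-linked and 0 autosomal calls were left.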
